A study of Rattus norvegicus with 9 samples.

Results

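The proteasome subunit genes of the rat pubococcygeus, which is skeletal muscle of the pelvic floor, were followed through a model of stress urinary incontinence (SUI) and electrical stimulation of the pelvic floor. Members were the rows whose gene symbol is Psma, Psmb, Psmc or Psmd followed by a number and nothing else. Where a symbol was repeated, the row with the highest mean count was kept. This gave 36 of the 30518 rows of the deposited tables: 8 Psma, 10 Psmb, 6 Psmc and 12 Psmd genes. Of these, 35 passed the filter on low counts. The remaining member was Psma8, the testis form of an alpha subunit, which was listed at or near 0 CPM (counts scaled to library size) in all 9 libraries.

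The proteasome is the large protease that degrades proteins carrying ubiquitin chains. Its barrel-shaped 20S core is built from alpha subunits (Psma), which form the outer rings and gate, and beta subunits (Psmb), some of which cut peptide bonds. The 19S cap holds ATPases (Psmc) that unfold the substrate and non-ATPase subunits (Psmd) that bind ubiquitin chains, remove them and hold the lid together. In muscle the proteasome is known for breaking down contractile proteins during wasting, after ligases such as Fbxo32 and Trim63 have tagged them. Interferon replaces the catalytic subunits of the core with inducible ones and so forms the immunoproteasome.

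Muscle came from female Sprague-Dawley rats, 24 in all, randomised to 3 groups of 8, and 3 RNA-seq libraries per group were used here. Stimulated rats underwent ovariectomy on both sides and vaginal distension, for which an 8 Fr balloon catheter held 3 mL of saline and carried a 120 g weight for 4 h. From 1 week later they received pelvic floor electrical stimulation (PFES) through the vagina at 50 Hz, 20 mA and 200 µs, for 30 min a day on 5 days a week over 2 weeks. SUI rats had the same ovary removal and distension and no treatment afterwards, and blank rats had no operation and no treatment. The stimulated and SUI groups thus share the ovariectomy and distension, no group used here had a sham operation or a sham stimulation, and the sources used here do not give the age of the animals. They also do not say whether each library is 1 of the 8 rats or a pool, so p-values measure only the spread between these libraries.

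Library totals lay between 50833480 counts (blank replicate 1) and 147650284 counts (stimulated replicate 1). Skeletal muscle markers such as Acta1, Ckm and Ttn were present in every library, with all 10 of 10 listed markers detected. Blank replicate 1 stood apart, with 32.9% of its counts from mitochondrial genes against 13.4% to 17.7% in the other 8 libraries and a median correlation of 0.920 with the others. SUI replicate 1 came next at 0.949, and its skeletal muscle markers had a median log2 deviation of -0.58 from their 9-library means. In bulk muscle, fewer cells of a type and less RNA per cell cannot be told apart.

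Proteasome genes are known targets of the transcription factors Nfe2l1 and Nfe2l2, which bind the antioxidant response element, and the inducible subunits are known targets of interferon. Promoter windows of 300 bases, 250 before and 50 after the transcription start, were available from RefSeq (assembly GRCr8) for 31 of the 35 members tested. The core of the antioxidant response element, searched on both strands as TGACNNNGC or TGAGNNNGC, was present in 13 of the 31 windows (41.9%), against 27.1% of 33469 rat promoters of the same length. Of the 6 members with the smallest p in SUI over blank, Psmd4 and Psmc4 had windows without that core. Psmd14 had no window. Stretches of the other 3, and of the catalytic subunit Psmb5, are shown because they hold that core, in capitals. They read 5′ to 3′ on the strand of the gene: Psmd2 from chr11:93763389-93763538 (minus strand), Psmc2 from chr4:14162391-14162540 (minus), Psmd13 from chr1:205394168-205394247 (plus) and Psmb5 from chr15:32047380-32047459 (minus), all GRCr8.
Psmd2: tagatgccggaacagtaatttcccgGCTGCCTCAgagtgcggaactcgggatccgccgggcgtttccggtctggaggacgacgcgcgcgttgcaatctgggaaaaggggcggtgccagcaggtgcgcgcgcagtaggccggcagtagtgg
Psmc2: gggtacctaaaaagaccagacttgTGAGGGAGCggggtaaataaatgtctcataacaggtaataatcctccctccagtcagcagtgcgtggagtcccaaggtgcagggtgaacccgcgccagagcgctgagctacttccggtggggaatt
Psmd13: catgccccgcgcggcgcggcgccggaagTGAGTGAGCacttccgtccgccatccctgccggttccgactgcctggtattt
Psmb5: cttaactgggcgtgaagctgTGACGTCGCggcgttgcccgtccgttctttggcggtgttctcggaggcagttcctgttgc

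The match in Psmd2 is on the opposite strand. The core was present in 6 of 15 cap windows and in 7 of 13 windows of the core genes without the inducible subunits. A CCAAT box (CCAAT, either strand) was present in 16 windows (51.6%), against 37.5% of all promoters. The interferon-stimulated response element, searched on both strands as GAAA, any 2 bases and GAAA again, was present in 5 windows (16.1%), against 3.92% of all promoters. It was found in 2 of the 3 inducible subunits, Psmb8 and Psmb10. The Psmb10 stretch, chr19:50743293-50743382 on the minus strand of GRCr8, holds the element at 2 places, in capitals. It is shown because the inducible subunits are compared with their constitutive partners further on.
Psmb10: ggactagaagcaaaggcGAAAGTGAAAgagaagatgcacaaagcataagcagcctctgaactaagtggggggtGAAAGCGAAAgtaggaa

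The gamma-activated sequence TTCNNNGAA, another interferon-linked motif, was present in 4 windows (12.9%), against 8.87% of all promoters. Matches of different motifs overlapped in 1 member, Psmb2, where the antioxidant response element core and the CCAAT box shared bases. These matches describe letters in the windows and were not tied to binding.

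Levels per gene length, as FPKM averaged over the 9 libraries, ran from 1.80 for Psmb9 to 100.1 for Psmb7, with a median of 43.3 over the 35 members. The constitutive catalytic subunits Psmb5, Psmb6 and Psmb7 averaged 66.3, 78.3 and 100.1 FPKM. Their inducible counterparts Psmb8, Psmb9 and Psmb10 averaged 1.85, 1.80 and 2.53 FPKM, the 3 lowest of the 35. Among cap genes the assembly chaperone Psmd5 had the lowest level, at 6.59 FPKM, and Psmc5, an ATPase, the highest, at 70.1 FPKM.

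Of the 35 members, 31 had their highest group mean CPM in SUI muscle, 3 in stimulated and 1 in blank muscle. The CPM of the 35 members summed to 2835, 2291 and 2524 in stimulated replicates 1 to 3, 4205, 3059 and 3064 in SUI, and 2264, 2544 and 2858 in blank. The 3 SUI libraries held the 3 highest sums. SUI replicate 1 was the highest of all and stood well above the other two of its group. The comparisons of stimulated over SUI and of SUI over blank share the SUI libraries, so their opposite signs are not independent.

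**Figure D1:**
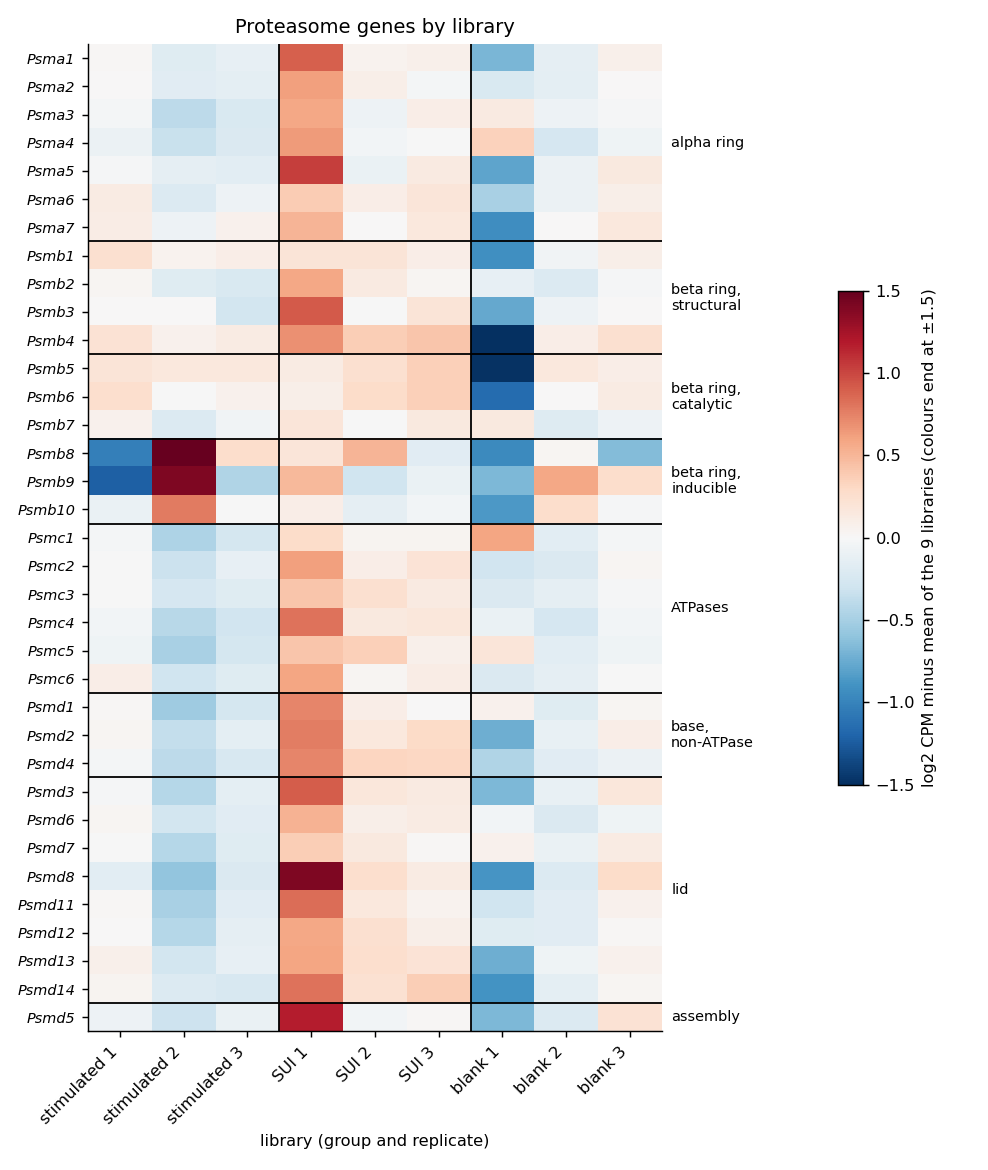
Heat map of the 35 members tested (rows, grouped by place in the complex) in the 9 libraries (columns, 3 stimulated, 3 SUI, 3 blank). Colour is log2 CPM minus the gene's mean over the 9 libraries. SUI replicate 1 is above the mean in all 35 rows, with a median of 0.59, and blank replicate 1 has the lowest median, -0.49.

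Stimulated over SUI asked what the stimulation changed in the operated muscle. Of the 35 members, 32 had a fitted log2 fold change below 0 (47.4% of all 16256 genes tested), with a median of -0.43 against 0.02 over all genes and a range from -1.03 for Psmd8 to 0.62 for Psmb8. No member was called by edgeR's quasi-likelihood test at an adjusted p under 0.05, where 2 genes of the whole table were called (0.0123%). DESeq2 called 198 genes (1.11% of those with an adjusted p) and voom with sample weights 48, in neither case a member. Without adjustment, 11 members had an edgeR p under 0.05, all lower in stimulated muscle, against 2.77% of all genes in that direction. That number was 19 without blank replicate 1, 4 without blank replicate 2, and 1 when SUI replicate 1 or either of stimulated replicates 2 and 3 was left out. In 19 members (54.3%) every stimulated library lay below every SUI library, against 9.28% of all genes. Markers of cell types also shifted in the same comparison, though edgeR called none of those given here. Of 8 listed markers of fibro-adipogenic progenitors, 7 were tested and all 7 had a log2 fold change above 0, with a median of 1.49, and of 0.80 with 5 above 0 without stimulated replicate 2. Their summed CPM ran from 335 to 890.0 in stimulated and 308 to 462 in SUI muscle, with Ly6a at 0 in some libraries. Of 8 nerve markers, 7 were above 0, with a median of 0.35 and sums of 87.7 to 152 CPM in stimulated and 46.9 to 127 CPM in SUI muscle. All 10 skeletal muscle markers were above 0, with a median of 0.17, and 5 of them without SUI replicate 1. Of 9 leukocyte markers tested, 7 were above 0, with a median of 0.53, and 3 without stimulated replicate 2. The part of these markers in the members' values was not tested.

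Cap and core genes were both lower in stimulated muscle on the fitted scale. Cap genes are counted as all Psmc and Psmd members, the assembly chaperone Psmd5 included. All 18 cap genes had a log2 fold change below 0, with a median of -0.55. In 16 of them the stimulated libraries lay below the SUI libraries without overlap, and the 11 members at an unadjusted p under 0.05 were all cap genes. Without blank replicate 1 the members under that threshold outnumbered the cap genes, so they were then not all of the cap. The 14 core genes other than the inducible subunits were also all below 0, with a median of -0.36, but only 3 separated the groups. Leaving out SUI replicate 1 gave medians of -0.32 for the cap and -0.16 for the core. The difference between cap and core was not tested.

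Psmd4, the cap subunit that captures ubiquitin chains, had the smallest p in both comparisons with SUI. It measured 85.9, 66.9 and 74.3 CPM in stimulated replicates 1 to 3, 146, 110.0 and 109 CPM in SUI, and 64.4, 78.2 and 82.6 CPM in blank. All 3 SUI libraries were above all 6 others. The log2 fold change was -0.68 ± 0.20 (SE) for stimulated over SUI, with an unadjusted edgeR p of 0.00735 and an adjusted p of 0.480. For SUI over blank it was 0.70 ± 0.20, with an unadjusted edgeR p of 0.00668 and an adjusted p of 0.504. Without SUI replicate 1 these changes were -0.52 and 0.53. On mRatBN7.2 the gene lies at chr2:182598934-182608194 on the minus strand.

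Psmd14 encodes the deubiquitinase of the lid, which cuts ubiquitin chains off the substrate. It measured 36.2, 30.5 and 29.6 CPM in stimulated muscle, 61.7, 41.2 and 45.3 CPM in SUI, and 18.8, 31.6 and 35.8 CPM in blank. The SUI libraries were again above all others, and blank replicate 1 was the lowest. The log2 fold change was -0.62 ± 0.26 for stimulated over SUI and 0.78 ± 0.26 for SUI over blank, with adjusted edgeR p of 0.593 and 0.549. Without both blank replicate 1 and SUI replicate 1 the change for SUI over blank was 0.36.

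Psmd8, a lid subunit, had the fold change furthest from 0 of any member in both comparisons with SUI, an order that rested on SUI replicate 1. It measured 54.7, 40.7 and 52.7 CPM in stimulated muscle, 162, 72.9 and 66.6 CPM in SUI, and 33.1, 53.3 and 74.1 CPM in blank. The stimulated libraries lay below the SUI libraries without overlap, while SUI and blank overlapped, and SUI replicate 1 was 2.32 times the mean of the other 2 SUI libraries. The log2 fold change for stimulated over SUI was -1.03 ± 0.39, with an adjusted edgeR p of 0.543. Without SUI replicate 1 it was -0.49, the fourth furthest from 0, and the change for SUI over blank was 0.37 in place of 0.91, with 10 members further from 0.

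Of the 6 ATPases that form the unfolding ring, 5 separated the stimulated from the SUI libraries, and their median log2 fold change was -0.44. Psmc4 measured 65.0, 50.4 and 55.0 CPM in stimulated muscle, 118, 74.4 and 75.8 CPM in SUI, and 62.7, 56.4 and 65.0 CPM in blank, so that SUI was above both other groups. Its log2 fold change was -0.66 ± 0.22 for stimulated over SUI, with an adjusted edgeR p of 0.513, and 0.54 ± 0.22 for SUI over blank. These changes were -0.40 and 0.28 without SUI replicate 1. Psmc5 averaged 97.9 ± 14.2 CPM in stimulated, 143 ± 17.3 CPM in SUI and 116 ± 14.5 CPM in blank muscle (SD, n = 3 each). Its 3 SUI libraries, at 156, 149 and 123 CPM, were all above the 3 stimulated libraries, at 112, 83.8 and 97.7 CPM, but overlapped blank, at 133, 105 and 112 CPM.

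All 8 lid genes separated the groups in stimulated over SUI, with a median log2 fold change of -0.54, and of -0.33 without SUI replicate 1. Psmd12, a scaffold subunit of the lid, measured 110.4, 81.7 and 100.1 CPM in stimulated muscle, 165, 130.3 and 117 CPM in SUI, and 96.9, 97.8 and 111 CPM in blank. Its SUI libraries were the 3 highest, and its log2 fold change for stimulated over SUI was -0.50 ± 0.20 with an adjusted edgeR p of 0.579, and -0.33 without SUI replicate 1. The 3 base subunits without ATPase activity, Psmd1, Psmd2 and Psmd4, had a median of -0.58, and of -0.36 without SUI replicate 1. Psmd5, which assists assembly of the base and is no part of the finished particle, had a log2 fold change of -0.66 ± 0.35 and SUI replicate 1 at 32.9 CPM beside 14.2 and 14.8 CPM in the other SUI libraries. Its change was -0.14 without SUI replicate 1.

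The 7 alpha subunits tested, which close the core and open for a bound cap, had a median log2 fold change of -0.43 for stimulated over SUI and 0.37 for SUI over blank. SUI replicate 1 was the highest library for all 7, and without it the medians were -0.15 and 0.19, with 5 of 7 above 0 in SUI over blank. Of these, 2 separated the stimulated from the SUI libraries, Psma1 and Psma4, which are named after their values were seen. Psma1 measured 65.0, 56.6 and 59.2 CPM in stimulated muscle, 120.1, 66.5 and 67.8 CPM in SUI, and 40.0, 58.6 and 67.9 CPM in blank. Blank reached into the SUI range through its replicate 3. The 4 structural beta subunits had medians of -0.38 and 0.53 for the same comparisons, and -0.18 and 0.34 without SUI replicate 1. Of these, 1, Psmb4, separated stimulated from SUI.

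**Figure D2:**
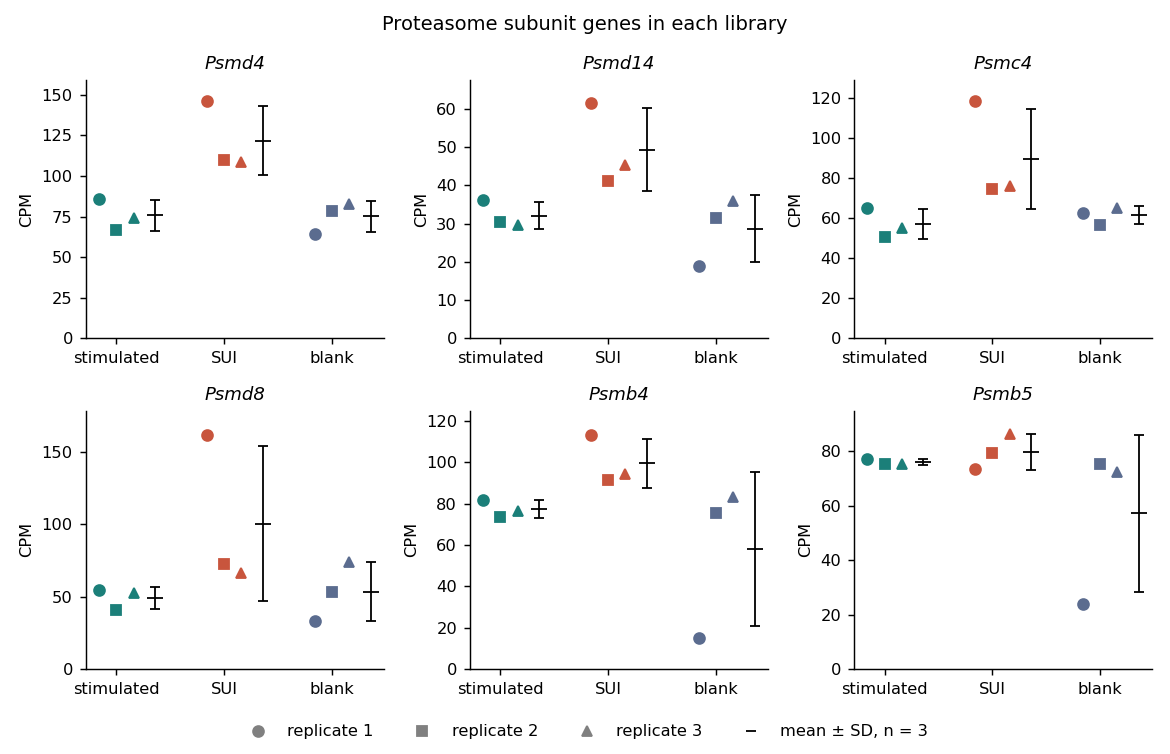
CPM (vertical axes, from 0) of 4 cap genes, Psmd4, Psmd14, Psmc4 and Psmd8, and 2 core genes, Psmb4 and Psmb5, in the stimulated, SUI and blank libraries. Symbols mark replicates 1 to 3 and bars the mean ± SD (n = 3). SUI replicate 1 is the highest point in each cap panel, and blank replicate 1 the lowest point for Psmb4 and Psmb5.

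SUI over blank asked what the operation changed. Of the 35 members, 33 had a log2 fold change above 0 (50.8% of all genes), with a median of 0.43 against 0.01 over all genes and a range from -0.10 for Psmb9 to 0.91 for Psmd8. No gene of the table was called by edgeR at an adjusted p under 0.05, so the members' count of 0 stands beside a share of 0%. DESeq2 called 182 genes (1.02% of those it gave an adjusted p), none of them a member. Without adjustment, 8 members had an edgeR p under 0.05, all higher in SUI, against 2.84% of all genes in that direction. Leaving out 1 library gave 4 without blank replicate 1, 2 without blank replicate 2 and 1 without SUI replicate 1, and 3, 5 and 2 without stimulated replicates 1, 2 and 3, which enter through the shared spread. In 14 members (40%) every SUI library lay above every blank library, against 7.34% of all genes. All 7 fibro-adipogenic markers tested were below 0 here, with a median of -0.67, and 7 of 8 nerve markers, with a median of -0.75. Their sums in blank muscle ran from 432 to 549.7 CPM and from 103 to 199 CPM. All 9 leukocyte markers tested were also below 0, with a median of -0.61, and of -1.45 without SUI replicate 1. The part of these 3 marker lists in the members' values was not tested.

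Cap and core genes were closer together here than in stimulated over SUI. The 18 cap genes had a median log2 fold change of 0.50, with 10 separating the groups, and the 14 core genes without the inducible subunits 0.41, with 4 doing so. These medians were 0.27 and 0.26 without SUI replicate 1. Psmd2, the scaffold of the cap's base, measured 203, 155 and 180 CPM in stimulated muscle, 339, 221 and 241 CPM in SUI, and 119, 184 and 213 CPM in blank. SUI was above both other groups, with a log2 fold change over blank of 0.63 ± 0.27 and an adjusted edgeR p of 0.591. Psmc2, an ATPase, had 142, 98.9 and 107 CPM in SUI and 75.7, 79.5 and 94.1 CPM in blank, a log2 fold change of 0.48 ± 0.20. Psmd13, a lid subunit, had 117, 91.9 and 88.7 CPM in SUI and 46.6, 73.7 and 80.9 CPM in blank, a log2 fold change of 0.56 ± 0.24. Neither gene overlapped between SUI and blank, and both had adjusted edgeR p of 0.594. Without SUI replicate 1 the changes were 0.41 for Psmd2, 0.29 for Psmc2 and 0.41 for Psmd13, and without blank replicate 1 they were 0.45, 0.43 and 0.37.

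In 10 members (28.6%) the SUI libraries lay above all libraries of both other groups, against 3.46% of all genes. These were Psmb4 of the core and Psmc2, Psmc3, Psmc4, Psmd2, Psmd4, Psmd6, Psmd12, Psmd13 and Psmd14 of the cap. They thus hold the ubiquitin receptor Psmd4, the deubiquitinase Psmd14 and ATPases. None of the 3 constitutive and 3 inducible catalytic subunits was among them. For Psmb5 and Psmb6 this rested on SUI replicate 1, at 73.3 and 76.1 CPM. SUI replicates 2 and 3 of both genes were above all stimulated and blank libraries. They were at 79.4 and 86.3 CPM for Psmb5, and at 87.2 and 92.0 CPM for Psmb6. For Psmb7, SUI replicate 2, at 138 CPM, was below stimulated replicate 1, at 145 CPM.

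**Figure D3:**
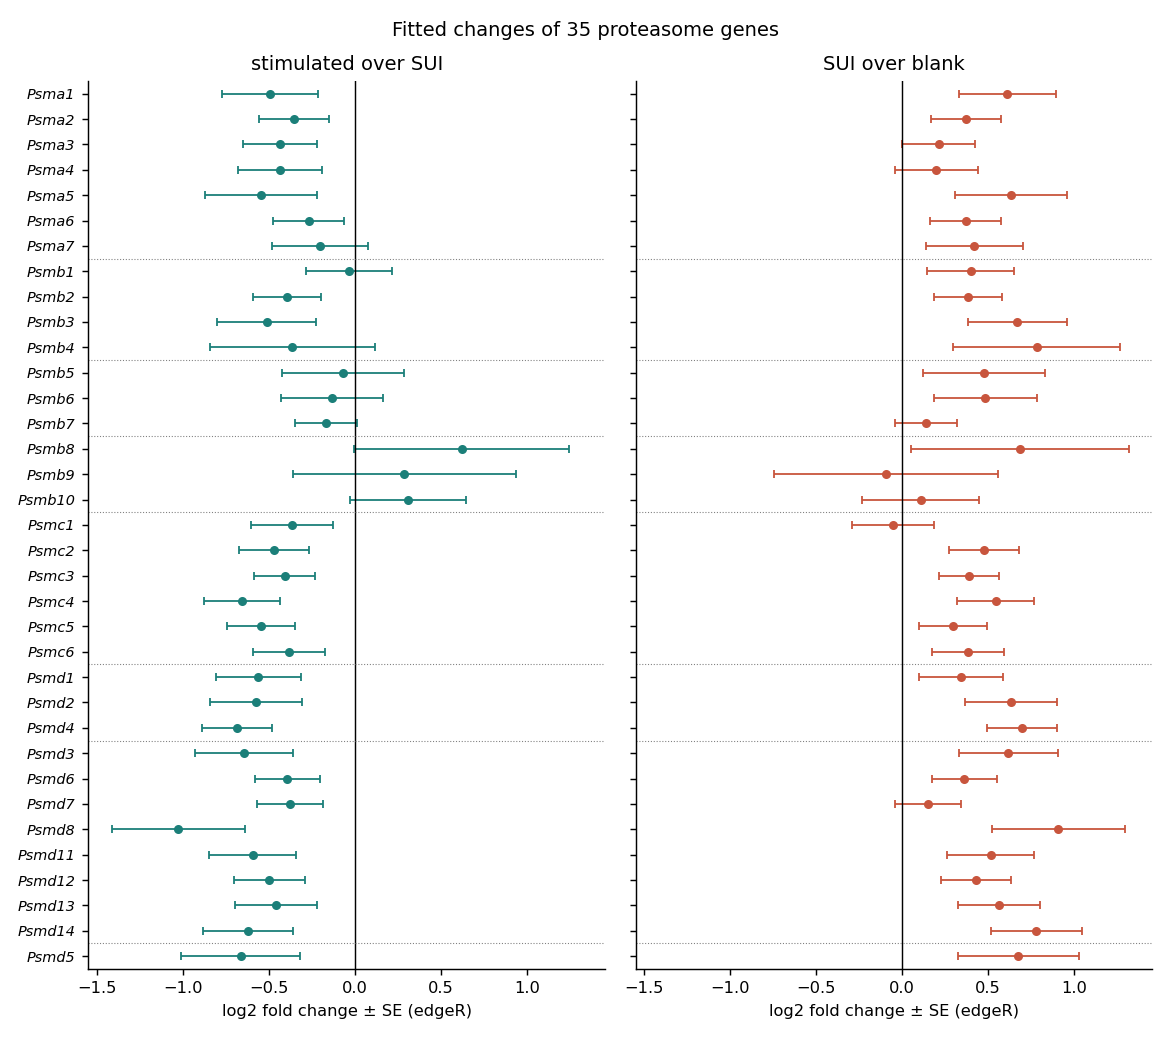
Fitted log2 fold change (horizontal axis, points with SE bars, edgeR) of the 35 members, grouped by place in the complex, for stimulated over SUI (left) and SUI over blank (right). The 18 cap genes are all below 0 on the left, and 17 of them are above 0 on the right. The 2 panels share the SUI libraries.

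In stimulated over blank, the sign split of the members depended on single libraries. The log2 fold changes were above 0 for 19 members and below 0 for 16, against 54.3% above 0 over all genes, with a median of 0.01 against 0.04. Without blank replicate 1 the signs split 6 above to 29 below 0, with a median of -0.09, and without stimulated replicate 2 they split 27 to 8, with a median of 0.08. With DESeq2 size factors the split was 15 to 20. No member was called by edgeR (0.00615% of all genes), DESeq2 (0.144%) or voom with sample weights, and none had an unadjusted edgeR p under 0.05 (all genes 3.77% in either direction). Only the core catalytic subunit Psmb5 lay above blank without overlap, against 7.9% of all genes. The 6 members with the smallest p were Psmb8, Psmc1, Psmb1, Psmc5, Psmb10 and Psmd7, with log2 fold changes of 1.31 ± 0.64, -0.42 ± 0.24, 0.37 ± 0.25, -0.25 ± 0.20, 0.42 ± 0.34 and -0.23 ± 0.19. Their adjusted edgeR p was 0.898 in each case. Without stimulated replicate 2 the changes were 0.22 for Psmb8, 0.08 for Psmb10 and -0.12 for Psmd7, and -0.15 for Psmc5. Without blank replicate 1 they were 0.14 for Psmb10 and 0.10 for Psmb1. Psmc1, an ATPase, measured 130.4, 96.7 and 111 CPM in stimulated and 201, 119 and 131 CPM in blank muscle, where blank replicate 1 was far above the rest, and its log2 fold change without that library was -0.17. A p above the threshold does not show that stimulated and blank muscle had equal levels.

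SUI replicate 1 stood high for most members. It was the highest of the 9 libraries for 28 of the 35 members (80%), against 16.4% of all genes tested. Its CPM was a median of 1.38 times the mean of the other 2 SUI libraries, with a range from 0.85 for Psmb6 to 2.32 for Psmd8, against 0.99 over all genes. This ratio was 1.50 in the alpha ring, 1.38 in the lid, 1.28 in the ATPases and 0.88 in the constitutive catalytic subunits. All 10 skeletal muscle markers were lower in the same library than the mean of the other 2, at a median of 0.62 times. Their summed CPM ran from 153405 to 194492 in stimulated, 109059 to 186309 in SUI and 149737 to 208816 in blank muscle, with none at 0, and their part in the result was not tested.

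Without SUI replicate 1, the median log2 fold change of the members was -0.21 for stimulated over SUI, with 32 still below 0, and 0.26 for SUI over blank, with 31 above 0. The cap's median in stimulated over SUI was then -0.32, with all 18 genes below 0, and 1 member was at an unadjusted edgeR p under 0.05 in each comparison. Without both blank replicate 1 and SUI replicate 1, the medians were -0.22 for stimulated over SUI and 0.14 for SUI over blank, with 32 below and 30 above 0. Without blank replicate 1 alone they were -0.47 and 0.41. Stimulated replicate 2 was the lowest of the 9 libraries for 14 of the 35 members (40%), against 12.4% of all genes tested. These included 11 of the 18 cap genes. Without that library the median for stimulated over SUI was -0.38, with 34 below 0. The median kept its sign in each of these fits.

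Blank replicate 1 was the lowest of the 9 libraries for 18 of the 35 members (51.4%), against 30.9% of all genes tested. These were 10 of the 14 core genes without the inducible subunits, 7 of the 18 cap genes and 1 inducible subunit. Psmb4, a structural beta subunit chosen here after its values were seen, measured 81.9, 73.6 and 76.7 CPM in stimulated muscle, 113, 91.2 and 94.3 CPM in SUI, and 15.1, 75.4 and 83.0 CPM in blank. Blank replicate 1 was 0.19 times the mean of the other 2 blank libraries. SUI lay above both other groups in every library, with its lowest at 91.2 CPM against 83.0 CPM in blank replicate 3. The log2 fold change of Psmb4 was -0.36 ± 0.48 for stimulated over SUI and 0.78 ± 0.48 for SUI over blank, and the second was 0.34 without blank replicate 1. Gene length was inferred here from the deposited counts and FPKM, and is not the span of the gene on the chromosome. By this measure members were short, with a median of 1831 bases against 3136 over all genes tested. With the trend of each library on gene length removed, their median log2 fold changes were -0.47 for stimulated over SUI and 0.39 for SUI over blank.

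The 3 constitutive catalytic subunits had the median closest to 0 of the subcomplexes in stimulated over SUI, at -0.13, a difference that was not tested. Without SUI replicate 1 it was -0.12, beside -0.15 for the alpha ring and -0.18 for the structural beta subunits. For SUI over blank their median was 0.48, and 0.52 without SUI replicate 1 and 0.19 without blank replicate 1. Psmb5, which carries the chymotrypsin-like activity, measured 77.1, 75.2 and 75.3 CPM in stimulated muscle, 73.3, 79.4 and 86.3 CPM in SUI, and 24.04, 75.1 and 72.5 CPM in blank. Outside blank replicate 1 the libraries were close together, and its log2 fold change for stimulated over SUI was -0.07 ± 0.36. Psmb6, with the caspase-like activity, measured 85.9, 71.7 and 75.3 CPM in stimulated, 76.1, 87.2 and 92.0 CPM in SUI, and 32.2, 72.3 and 78.2 CPM in blank muscle, and SUI overlapped both other groups. Psmb7, with the trypsin-like activity, measured 145, 121 and 134 CPM in stimulated, 158, 138 and 154 CPM in SUI, and 155, 122 and 132 CPM in blank muscle. Its groups overlapped too, and the log2 fold changes for stimulated over SUI were -0.13 ± 0.30 for Psmb6 and -0.17 ± 0.18 for Psmb7. Leaving out SUI replicate 1 gave -0.12 for Psmb5 and -0.20 for Psmb6. None of the 3 had an unadjusted edgeR p under 0.05 in any comparison.

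The inducible subunits of the immunoproteasome stood out in stimulated replicate 2. Psmb8 measured 0.95, 7.44 and 2.46 CPM in stimulated replicates 1 to 3, 2.32, 2.94 and 1.80 CPM in SUI, and 1.01, 2.08 and 1.26 CPM in blank. Psmb9 measured 0.71, 4.88 and 1.28 CPM in stimulated, 2.54, 1.44 and 1.65 CPM in SUI, and 1.09, 2.73 and 2.16 CPM in blank muscle. Psmb10 measured 4.54, 8.45 and 4.86 CPM in stimulated, 5.23, 4.44 and 4.75 CPM in SUI, and 2.65, 5.88 and 4.80 CPM in blank muscle. All 3 genes were highest in stimulated replicate 2, while the other stimulated libraries were within or below the range of SUI and blank. Their log2 fold changes for stimulated over SUI were 0.62 ± 0.63 for Psmb8, 0.29 ± 0.65 for Psmb9 and 0.31 ± 0.34 for Psmb10. Without stimulated replicate 2 these were -0.46, -0.91 and -0.03, so the sign rested on that library. Psmb9 was at 0.58 without SUI replicate 1.

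Set against their constitutive partners per gene length, the inducible subunits had small shares. Psmb8 FPKM was 0.95%, 7.68% and 2.53% of that of Psmb5 in stimulated replicates 1 to 3, 2.48%, 2.96% and 1.58% in SUI, and 3.16%, 2.36% and 1.34% in blank. Psmb9 reached 5.26% of Psmb6 and Psmb10 4.57% of Psmb7 in stimulated replicate 2, the highest value of each pair. Interferon-stimulated genes were high in the same library: its median deviation from the mean of the 9 libraries over 16 tested genes of 17 listed was 1.73 log2 units, and 15 of the 16 were at their highest there. Summed leukocyte markers were also highest there, at 148.6 CPM, and ran from 23.3 to 148.6 CPM in stimulated, 44.1 to 90.3 CPM in SUI and 61.1 to 122.2 CPM in blank muscle. Of 12 listed markers, 11 matched a row, and Cd3e and Cd3g, which mark T cells, were at 0 in some libraries. Fibro-adipogenic markers were also high in stimulated replicate 2, with a median deviation of 1.31 log2 units, 7 of 8 at their highest there and the highest sum of all libraries, 890.0 CPM. The part of interferon response, leukocytes and fibro-adipogenic cells in the subunits' values was not tested.

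**Figure D4:**
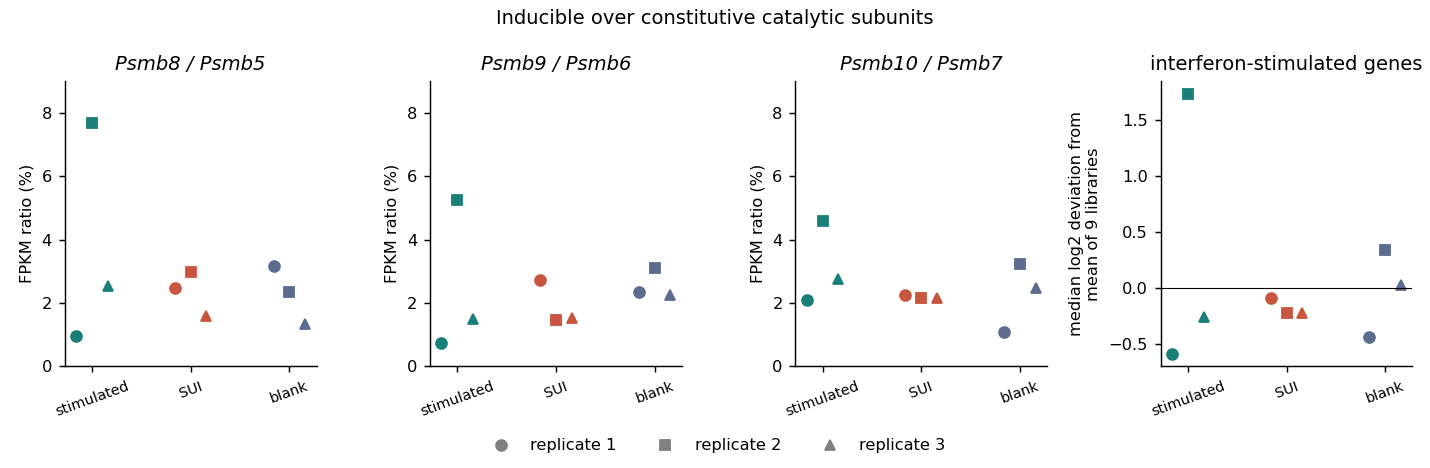
The first 3 panels give the FPKM of each inducible catalytic subunit as a percentage of its constitutive partner in the stimulated, SUI and blank libraries, and the last panel the median log2 deviation of interferon-stimulated genes. Symbols mark replicates 1 to 3. Stimulated replicate 2 is the highest point in each panel, at 7.68%, 5.26%, 4.57% and 1.73.

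Further parts of the proteasome and its assembly factors had a median log2 fold change of -0.07 for stimulated over SUI and 0.19 for SUI over blank, with 11 of 12 listed genes tested. Without stimulated replicate 2 the first was 0.00, and without blank replicate 1 the second was 0.08. None was called by edgeR, and 1 in each comparison had an unadjusted p under 0.05. That gene was Adrm1, the second ubiquitin receptor of the cap, which falls outside the symbol pattern. It measured 68.6, 51.1 and 60.7 CPM in stimulated muscle, 107, 89.6 and 83.0 CPM in SUI, and 59.4, 61.2 and 75.4 CPM in blank. As for Psmd4, the SUI libraries were above all others, with log2 fold changes of -0.63 ± 0.20 for stimulated over SUI and 0.51 ± 0.20 for SUI over blank. Usp14, a deubiquitinase that docks on the cap, averaged 47.3 ± 8.98 CPM in stimulated, 62.5 ± 12.9 CPM in SUI and 47.4 ± 3.86 CPM in blank muscle (SD, n = 3 each).

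Of 5 listed activators and inhibitors, 3 were tested and none was called by edgeR, and the other 2 are not analysed here. Psme4, an alternative cap of the core, measured 133, 102 and 160 CPM in stimulated, 529, 131 and 253 CPM in SUI, and 155, 173 and 223 CPM in blank muscle. Groups overlapped, and its log2 fold change for stimulated over SUI was -1.21 ± 0.44, and -0.54 without SUI replicate 1. Psmf1, an inhibitor of the core, had 20.8, 17.1 and 20.1 CPM in stimulated, 28.0, 22.1 and 23.9 CPM in SUI, and 15.6, 20.1 and 20.8 CPM in blank muscle, with SUI above both. Psme1, a subunit of the interferon-induced activator, averaged 43.3 ± 5.69 CPM in stimulated, 35.6 ± 2.75 CPM in SUI and 30.2 ± 6.04 CPM in blank muscle (SD, n = 3 each).

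Regulators of proteasome gene expression, listed together with the proteasome-binding proteins Zfand2a and Zfand5, were uneven. Of 10 listed, 9 were tested and none was called by edgeR, with a median log2 fold change of -0.44 for stimulated over SUI and 0.44 for SUI over blank. Without SUI replicate 1 these medians were 0.13 and -0.10, so the direction of this list rested on that library. Nfe2l1, which is activated when the proteasome is impaired, measured 369, 247 and 339 CPM in stimulated, 529, 459 and 328 CPM in SUI, and 405, 438 and 432 CPM in blank muscle. Its stimulated and SUI libraries overlapped, with a log2 fold change of -0.46 ± 0.24, which was -0.30 without SUI replicate 1 and -0.31 without stimulated replicate 2. For SUI over blank the change was 0.05 ± 0.24, and -0.12 without SUI replicate 1. For stimulated over blank it was -0.42 ± 0.24, with every stimulated library below every blank library, and -0.26 without stimulated replicate 2. Nfe2l2, the regulator of the oxidative stress response, averaged 34.9 ± 1.88 CPM in stimulated, 40.1 ± 14.0 CPM in SUI and 29.5 ± 3.08 CPM in blank muscle (SD, n = 3 each). Ddi2, the protease that activates Nfe2l1, and Zfand5, a proteasome-binding protein, were at 137 and 306 CPM in SUI replicate 1. In the other 8 libraries Ddi2 was at most 43.3 CPM and Zfand5 at most 126 CPM.

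Zfand2a, a stress-induced protein that binds the proteasome, had the smallest p of this list in both comparisons. It measured 18.4, 9.06 and 10.5 CPM in stimulated muscle, 52.4, 23.9 and 23.3 CPM in SUI, and 4.63, 10.0 and 17.2 CPM in blank. All SUI libraries were above all others, with log2 fold changes of -1.39 ± 0.50 for stimulated over SUI and 1.64 ± 0.50 for SUI over blank. The adjusted edgeR p were 0.521 and 0.524. The changes were -0.90 and 1.13 without SUI replicate 1.

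Ubiquitin and shuttle genes, which make ubiquitin or carry substrates to the proteasome, were below 0 for 12 of 15 in stimulated over SUI and above 0 for 12 of 15 in SUI over blank. Their medians were -0.32 and 0.16, and none was called by edgeR. The medians were -0.15 and 0.14 without SUI replicate 1. Nploc4, a cofactor of the unfoldase Vcp, measured 117, 76.2 and 105 CPM in stimulated, 262, 145 and 146 CPM in SUI, and 60.2, 105 and 130.4 CPM in blank muscle. The SUI libraries lay above both other groups, with log2 fold changes of -0.89 ± 0.34 for stimulated over SUI and 0.90 ± 0.34 for SUI over blank, and of -0.54 and 0.54 without SUI replicate 1. Vcp itself averaged 292 ± 45.9 CPM in stimulated, 401 ± 92.5 CPM in SUI and 260 ± 86.6 CPM in blank muscle (SD, n = 3 each).

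Antigen processing partners of the immunoproteasome had medians near 0, at 0.11 for stimulated over SUI and -0.05 for SUI over blank, with 8 of 9 listed genes tested and none called by edgeR. Without stimulated replicate 2 the first was -0.08. Cd74, the invariant chain of class II antigen presentation, measured 40.6, 180.2 and 91.9 CPM in stimulated, 29.6, 41.4 and 55.3 CPM in SUI, and 58.2, 104 and 99.4 CPM in blank muscle. Stimulated replicate 2 was the highest library, as for Psmb8.

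Among 11 atrophy ligases, 9 had a log2 fold change below 0 for stimulated over SUI and 7 above 0 for SUI over blank, and none was called by edgeR. Without SUI replicate 1 these counts were 7 and 4. Fbxo32, the ligase that marks muscle proteins for the proteasome, measured 25.0, 14.9 and 22.6 CPM in stimulated, 583, 74.8 and 138 CPM in SUI, and 87.5, 51.4 and 33.7 CPM in blank muscle. The stimulated libraries were below all 6 others. The log2 fold change for stimulated over SUI was -3.67 ± 0.73, with an adjusted p of 0.266 by edgeR and of 1.05e-05 by DESeq2, and -2.35 without SUI replicate 1. Over all alternatives its adjusted p ran from 1.05e-05 to 0.744. Trim63, which tags myosin, measured 884, 224 and 462 CPM in stimulated, 1690.4, 429 and 647 CPM in SUI, and 342, 398 and 953 CPM in blank muscle, and its groups overlapped.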

How the data were processed

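RNA was sequenced from rat pubococcygeus muscle. Alignment and quantification tools are Bowtie2 and RSEM 1.3.1, with DESeq2 1.4.5 and the build mRatBN7.2, per the submitters' processing notes. The sources used here do not say whether counting used strand. Per the file headers, the deposited tables give expected counts, here rounded to whole numbers, and FPKM as estimated by the authors. Groups come from the sample titles. Library names call the SUI group sham. All libraries carry one batch label.

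After filterByExpr, 16256 genes remained, and their counts were scaled by TMM factors and tested with edgeR 4.0.16 in R 4.3.3 (robust quasi-likelihood F test, all 9 libraries in one fit, Benjamini-Hochberg adjustment over all genes at 0.05). Values are CPM per TMM-adjusted library size. SE is the fold change over the square root of F. Totals ran from 50833480 to 147650284 counts. A count of 3 corresponds to 0.0203 to 0.059 CPM, before TMM, and covers counting error only. Promoter windows came from RefSeq, matched by symbol.

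Alternatives were other size factors and filters, DESeq2 1.42.0, voom with sample weights (limma 3.58.1), 6 libraries only, the replicate number as a block, limma on log2(FPKM + 1) and log2(FPKM + 0.1), gene length offsets and left-out libraries. With library totals only, the median of all genes moved to -0.11 for stimulated over SUI and 0.19 for SUI over blank. The edgeR step was tested on simulated data. Members and gene lists were chosen with earlier results of these data known. Named genes are the 6 members with the smallest p per comparison, the catalytic subunits, Nfe2l1, Nfe2l2, Fbxo32 and Trim63, and up to 3 genes per related list by smallest p. Some genes that this rule or a marker list reaches are not reported here.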

Additional observations from a re-analysis of the deposited data

How the results depend on the processing

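No proteasome gene was called in any comparison under any of the settings run, and the members' median log2 fold change kept its sign in all of them for stimulated over SUI (-0.52 to -0.21 leaving out 1 library) and SUI over blank (0.26 to 0.59). For stimulated over blank it lay near 0 and ran from -0.09 to 0.18. Without both blank replicate 1 and SUI replicate 1 the medians were -0.22 for stimulated over SUI and 0.14 for SUI over blank. Where values moved, the cause was not tested.

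Members at an unadjusted p under 0.05, 11 for stimulated over SUI, were 18 with voom and sample weights, 6 with the replicate block, 3 on log2 FPKM plus 1, 4 on log2 FPKM plus 0.1, and 1 to 19 leaving out 1 library. For SUI over blank, 8 members became 5 with voom, 2 with the 6 libraries compared only, 3 with the replicate block, 5 with gene length offsets, 2 without both libraries, and 1 to 11 leaving out 1 library. For stimulated over blank, 0 became 1 with DESeq2 and 0 to 1 leaving out 1 library.

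Over all genes, edgeR called 2 for stimulated over SUI. DESeq2 called 198, voom 48, library totals only 1, the replicate block 1, and the 6 libraries, both FPKM settings and the fit without both libraries 0, with 0 to 3 leaving out 1 library. For SUI over blank, DESeq2 called 182 against 0, and leaving out 1 library gave 0 to 1. For stimulated over blank, DESeq2 called 27 against 1, and the 6 libraries, the replicate block, log2 FPKM plus 1 and the fit without both libraries 0, with 0 to 1 leaving out 1 library. The replicate numbers share only a number: correlations of same-numbered deviations ran from -0.218 to 0.113.

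Among the named genes of each comparison, the sign of these turned under some settings. Leaving out 1 library in turn, the log2 fold change for stimulated over SUI ran from -0.462 to 1.07 for Psmb8, -0.912 to 0.715 for Psmb9, -0.031 to 0.469 for Psmb10, -0.377 to 0.125 for Nfe2l2 and -0.0346 to 0.535 for B2m, the light chain of class I molecules. Psmb9 was -0.223 with voom, -0.18 with the replicate block, -0.0914 on log2 FPKM plus 1 and -0.263 on log2 FPKM plus 0.1, and Nfe2l2 was 0.0696 with voom and 0.116 without both libraries. For SUI over blank, leaving out 1 library gave -0.838 to 0.204 for Uchl5, a deubiquitinase of the cap, and -0.11 to 1.25 for Ddi2. With voom these were 0.157 and -0.0159, and without both libraries 0.21 and -0.287. Psme4 was -0.044 without both libraries and ran from 0.0493 to 1.08 leaving out 1 library. For stimulated over blank, Psmc1 was 0.001004 on log2 FPKM plus 1 and 0.00112 on log2 FPKM plus 0.1, and Psmb10 was -0.0331 with voom. Further members turned as well. In SUI over blank, for example, Psma3 was -0.017 and Psma4 -0.068 without SUI replicate 1. In stimulated over SUI, Psmb1 was 0.005 without stimulated replicate 2.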
